A study of Mus musculus with 20 samples.

Results

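The genes described here are 8 that developing or mature B cells use and that stood lower in bone marrow neutrophil libraries after imiquimod. They are Cd79a, Cd79b, Ebf1, Vpreb1, Vpreb3, Igll1, Pax5 and Ms4a1, taken by symbol from the 24421 genes listed. They were selected on their measured read levels under imiquimod against untreated in these same libraries, so their imiquimod values below are a description with no test. The comparisons of genotype did not enter the choice and were tested. The libraries were bone marrow neutrophils of female mice, isolated by magnetic negative selection and stated in the methods to be more than 95% CD11b+Ly6G+ by flow cytometry. WT mice were C57BL/6J. KO mice (Bmal1Mye-/-, the Bmal1 myeloid conditional KO of the labels) carried Bmal1 flox/flox with Cre from the LysM locus, which is active in myeloid cells and not in B cells. Untreated mice of each genotype were compared with mice given imiquimod (IMQ), a TLR7/8 agonist, as a 5% cream on the ears 3 times a week for 6 weeks from 8 to 10 weeks of age. Each of the 4 groups had 5 libraries, 1 mouse a library.

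B cells arise in the bone marrow from progenitors that switch on the transcription factors EBF1 and then PAX5. Pro-B and pre-B cells assemble a pre-B cell receptor, in which VPREB1 and IGLL1 (lambda 5) stand in for the light chain and CD79A and CD79B carry the signal into the cell. VPREB3 is a related protein of the endoplasmic reticulum that binds immunoglobulin chains during their assembly. CD79A and CD79B remain in the receptor of mature B cells, which also carry CD20, the product of Ms4a1. Neutrophils are myeloid cells and are not known for this receptor. In RNA from bulk samples, fewer cells of a type and less RNA per cell cannot be told apart.

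On the GRCm38 build (GENCODE M21 gene models, placed by symbol) the genes lie on 6 chromosomes. Cd79a is at chr7:24897381-24902197 on the plus strand and Cd79b at chr11:106311341-106314762 on the minus strand. Igll1 (chr16:16860671-16863985) and Vpreb1 (chr16:16868403-16870843) are neighbours on the minus strand. Vpreb3 lies at chr10:75943057-75949657 on the plus strand, Ebf1 at chr11:44617317-45008091 on the plus strand, Pax5 at chr4:44524757-44710487 on the minus strand and Ms4a1 at chr19:11249675-11266241 on the minus strand. Vpreb1 overlaps Top3b on the opposite strand, a gene with 64403 reads over the 20 libraries. Whether the counting used the strand is not given in the sources used here, so Vpreb1 reads, which numbered 0 to 20 a library, could include some from its partner.

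The start-site sequences of the receptor genes are shown because these genes are known targets of EBF1 and of E-box binding proteins. Both stretches come from the RefSeq promoter table (GRCm38.p6), read 5′ to 3′ on the gene's strand. Capitals mark letters that match CCCNNGGG (a shortened form of the EBF1 palindrome) or the E-boxes CAGGTG and CAGCTG on either strand. The Igll1 stretch is chr16:16863986-16864235 on the minus strand and ends at the base before the gene's start. The Cd79a stretch is chr7:24897247-24897380 on the plus strand and ends at the base before the first annotated exon.
Igll1: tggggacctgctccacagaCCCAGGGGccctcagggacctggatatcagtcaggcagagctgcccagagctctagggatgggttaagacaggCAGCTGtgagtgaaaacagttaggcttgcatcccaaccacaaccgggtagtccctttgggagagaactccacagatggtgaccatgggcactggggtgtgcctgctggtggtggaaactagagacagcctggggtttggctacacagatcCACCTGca
Cd79a: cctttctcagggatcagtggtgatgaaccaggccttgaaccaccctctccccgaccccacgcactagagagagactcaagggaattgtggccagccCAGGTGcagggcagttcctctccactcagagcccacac
Igll1 held CCCAGGGG 231 bases before its start, CAGCTG 158 bases before it and, on the opposite strand, CAGGTG 8 bases before it. Cd79a held CAGGTG 154 bases before its start as RefSeq gives it. Of all 32851 promoters in the table, 13.7% held CCCNNGGG, 20.2% CAGGTG and 16.3% CAGCTG within windows of the same 300 bases, on either strand. The full EBF1 palindrome, CCCNNGGG with a T before and an A after it, was in 0.904% of promoters and in none of the 7 windows that the table gives for Pax5, Cd79a, Vpreb3, Ebf1, Igll1 and Vpreb1. Only exact matches were searched, so a window without one can still hold a site that departs from these letters. The table holds Ebf1 with 2 windows, and Cd79b and Ms4a1 had no entry. Among the members with a window, CAGGTG was also found in Vpreb1, 88 bases before its start.

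The libraries held 30782166 to 92613500 reads on genes (median 66094896). Values below are CPM, reads scaled to a common library size after TMM normalisation. A floor of 3 reads, which covers counting error only, corresponded to 0.0324 to 0.101 CPM, and several members stood at or under it in many libraries. The neutrophil marker list (12 genes, such as S100a9) summed to 72352 to 159742 CPM. Its gene Ly6g is not analysed here. Arntl (Bmal1) itself ranged from 0.895 to 1.71 CPM in WT untreated libraries against 0.468 to 1.10 in KO untreated, and from 0.562 to 1.87 in WT IMQ against 0.337 to 1.52 in KO IMQ. Its KO against WT difference had an adjusted p of 1.00 untreated and 0.305 under IMQ by edgeR's quasi-likelihood test. On the first principal component, WT IMQ replicate 5 (-37.1) and KO IMQ replicate 2 (-10.5) lay among the untreated libraries (-56.7 to -7.92) and apart from the other 8 IMQ libraries (19.3 to 92.5). The IMQ changes of the fitted members and the counts of other B-lineage genes called are given with and without this pair, WT IMQ replicate 5 and KO IMQ replicate 2. KO untreated replicate 3 was the shallowest library.

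All 8 genes had a lower mean in IMQ libraries than in untreated libraries of the same genotype, by amounts that differed between genes. Over the 8, the median log2 ratio of mean CPM was -1.67 in WT and -1.58 in KO, beside 0.027 and 0.028 over all 14030 genes tested. The largest drop was that of Vpreb3 in KO, 8.90-fold in mean CPM, and the smallest that of Vpreb1 in KO, 1.02-fold. In WT, Cd79b and Vpreb3 were the 2 of 8 genes whose 5 IMQ libraries all lay under all 5 untreated ones, and 3.31% of all genes did so in that direction. In KO only Pax5 did, 1 of 8, beside 9.31% of all genes. Cd79a, Cd79b and Ebf1 had reads in all 20 libraries, and the other 5 genes had none in 2 (Vpreb1) to 6 (Pax5) of them. Without the pair of libraries that lay apart, a choice made after seeing the data, the median log2 ratios were -2.08 in WT and -2.66 in KO.

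**Figure D1:**
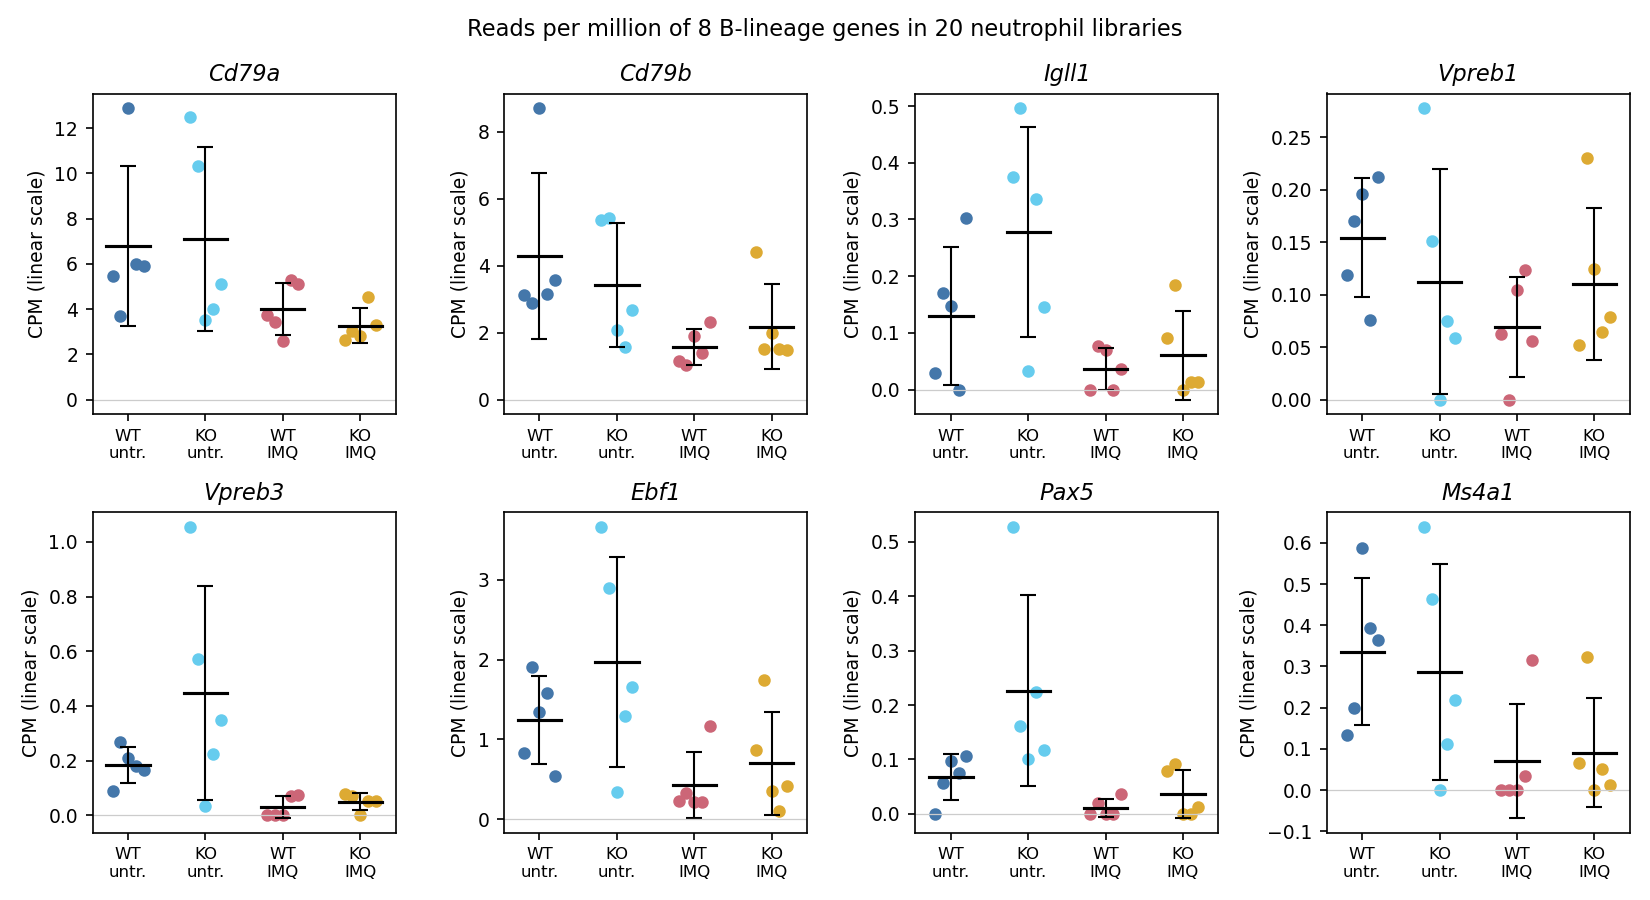
CPM of each of the 8 genes (linear vertical axes, one panel a gene) in the 5 libraries of each group, with points as libraries, horizontal lines as means and bars as the SD. Cd79a and Cd79b keep reads in all 10 IMQ libraries, whereas Vpreb3, Pax5 and Ms4a1 drop to 0 in 3 of 5 WT IMQ libraries each; an SD bar can reach under 0 although no value does.

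Cd79a, a signalling chain of the receptor, stood at 3.70 to 12.9 CPM (median 5.93) in WT untreated libraries and at 2.57 to 5.27 (median 3.72) in WT IMQ, with means of 6.80 ± 3.53 and 4.02 ± 1.15 (SD, n = 5). In KO it stood at 3.50 to 12.5 untreated (mean 7.09 ± 4.05) and at 2.63 to 4.56 under IMQ (mean 3.27 ± 0.761). The groups overlapped in both genotypes, with 2 of 5 WT and 4 of 5 KO IMQ libraries under the lowest untreated one. The fitted log2 change was -0.76 (SE 0.36) in WT and -1.12 (SE 0.36) in KO. Without the pair of libraries that lay apart these were -0.86 (SE 0.40) and -1.07 (SE 0.40). With 1 library left out, the WT change ran from -0.93 to -0.39, the latter without WT untreated replicate 3. In KO it ran from -1.27 to -0.81, the latter without KO untreated replicate 1.

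Cd79b, its partner in the receptor, separated more clearly in WT. Its WT untreated libraries gave 3.11, 2.88, 8.71, 3.17 and 3.56 CPM and its WT IMQ libraries 1.14, 1.05, 1.91, 1.39 and 2.32. Every IMQ value was under every untreated value, and the log2 change was -1.45 (SE 0.42). It was -1.64 (SE 0.46) without the pair and -1.03 without WT untreated replicate 3. In KO the untreated libraries gave 5.36, 5.42, 2.09, 1.57 and 2.68 CPM and the IMQ libraries 4.41, 1.52, 2.01, 1.52 and 1.47. These groups overlapped, with KO IMQ replicates 1 and 3 above the lowest untreated library. The log2 change was -0.65 (SE 0.41), or -0.53 (SE 0.44) without the pair. It was -1.07 without KO IMQ replicate 1 and -0.42 without KO untreated replicate 2. The difference of the WT and KO changes, given with the interaction below, was not called. Together Cd79a and Cd79b supplied 75.4 to 89.6% of the members' reads in each group.

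The surrogate light chain genes and Vpreb3 are those of the pre-B cell receptor and its assembly, and they were read far less often. Vpreb3 stood at 0.0889, 0.269, 0.208, 0.182 and 0.167 CPM in WT untreated libraries, each from 6 to 19 reads. In WT IMQ it had no read in 3 libraries and stood at 0.0704 and 0.0743 in the others. No IMQ library reached the lowest untreated one, and the log2 change was -2.55 (SE 0.89), or -3.18 (SE 1.03) without the pair of libraries that lay apart. In KO untreated libraries Vpreb3 spread from 0.0337 to 1.06 CPM, the lowest being the shallow replicate 3 with 1 read, and in KO IMQ from 0 to 0.0778. The log2 change in KO was -3.12 (SE 0.82), the largest among the 7 genes fitted, although the groups overlapped through that 1 library. Without the pair it was -3.21 (SE 0.87).

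Igll1, the constant-region part of the surrogate light chain, had a log2 change of -1.75 in WT (SE 1.05) and -2.30 in KO (SE 0.99). Without the pair these were -1.76 (SE 1.10) and -3.13 (SE 1.08). Igll1 stood at 0 to 0.303 CPM in WT untreated, 0 to 0.0777 in WT IMQ, 0.0337 to 0.496 in KO untreated and 0 to 0.184 in KO IMQ. The groups overlapped in both genotypes, and 1 WT untreated library had no read. Vpreb1, the variable-region part, had its larger difference in WT. Its WT libraries stood at 0.0759 to 0.212 CPM untreated and 0 to 0.123 under IMQ. The log2 change was -1.12 (SE 0.70), or -1.05 (SE 0.74) without the pair. Its KO untreated libraries gave 0.278, 0.151, 0, 0.0749 and 0.0583 CPM and its KO IMQ libraries 0.0519, 0.230, 0.124, 0.0649 and 0.0789. The groups overlapped, and the log2 change was -0.16 (SE 0.68), or -0.56 (SE 0.72) without the pair. Each KO IMQ library held 4 to 10 Vpreb1 reads.

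Ebf1, the factor that starts the B-cell programme, is also read in stromal cells of the marrow, so its reads need not be those of B cells alone. In WT untreated libraries it gave 0.830, 1.91, 1.35, 1.58 and 0.546 CPM. In WT IMQ it gave 0.229, 0.330, 0.210, 0.211 and 1.17. The first 4 IMQ libraries were under every untreated one and replicate 5 was among them, and the log2 change was -1.53 (SE 0.68) with it and -2.34 (SE 0.63) without the pair of libraries placed among the untreated. In KO the untreated libraries gave 3.67, 2.90, 0.337, 1.29 and 1.66 CPM and the IMQ libraries 0.869, 1.75, 0.355, 0.104 and 0.421. The groups overlapped, with replicate 2 the highest of the IMQ libraries and replicate 3 the lowest of the untreated, and the change was -1.53 (SE 0.67), or -2.16 (SE 0.60) without the pair.

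Pax5, which holds cells to the B lineage, was the scarcest member and the 1 of 8 that did not pass the filter on low counts, so no fit was made for it. It had 24 reads in the WT untreated group, 76 in KO untreated, 3 in WT IMQ and 11 in KO IMQ. KO untreated libraries gave 0.528, 0.162, 0.101, 0.225 and 0.117 CPM and KO IMQ libraries 0.0778, 0.0920, 0, 0 and 0.0132, with no overlap. WT untreated libraries spread from 0 to 0.106 CPM and WT IMQ libraries from 0 to 0.0372, which overlapped because 1 untreated library had no read.

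Ms4a1, which encodes CD20 of the B-cell surface, had no read in 3 of 5 WT IMQ libraries. It gave 0.133, 0.198, 0.587, 0.394 and 0.364 CPM in WT untreated libraries and 0, 0, 0, 0.0352 and 0.316 in WT IMQ. Only replicate 5 reached the untreated range, and the log2 change was -2.22 (SE 1.11) with it and -4.92 (SE 1.15) without the pair. That second value depends on the small count the fit adds to libraries without reads and is no bound. In KO the untreated libraries gave 0.639, 0.464, 0, 0.112 and 0.219 CPM and the IMQ libraries 0.0649, 0.322, 0, 0.0519 and 0.0132. These groups overlapped, with 1 untreated library without a read and IMQ replicate 2 above 2 others of the untreated libraries, and the log2 change was -1.80 (SE 1.09), or -3.05 (SE 0.93) without the pair.

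**Figure D2:**
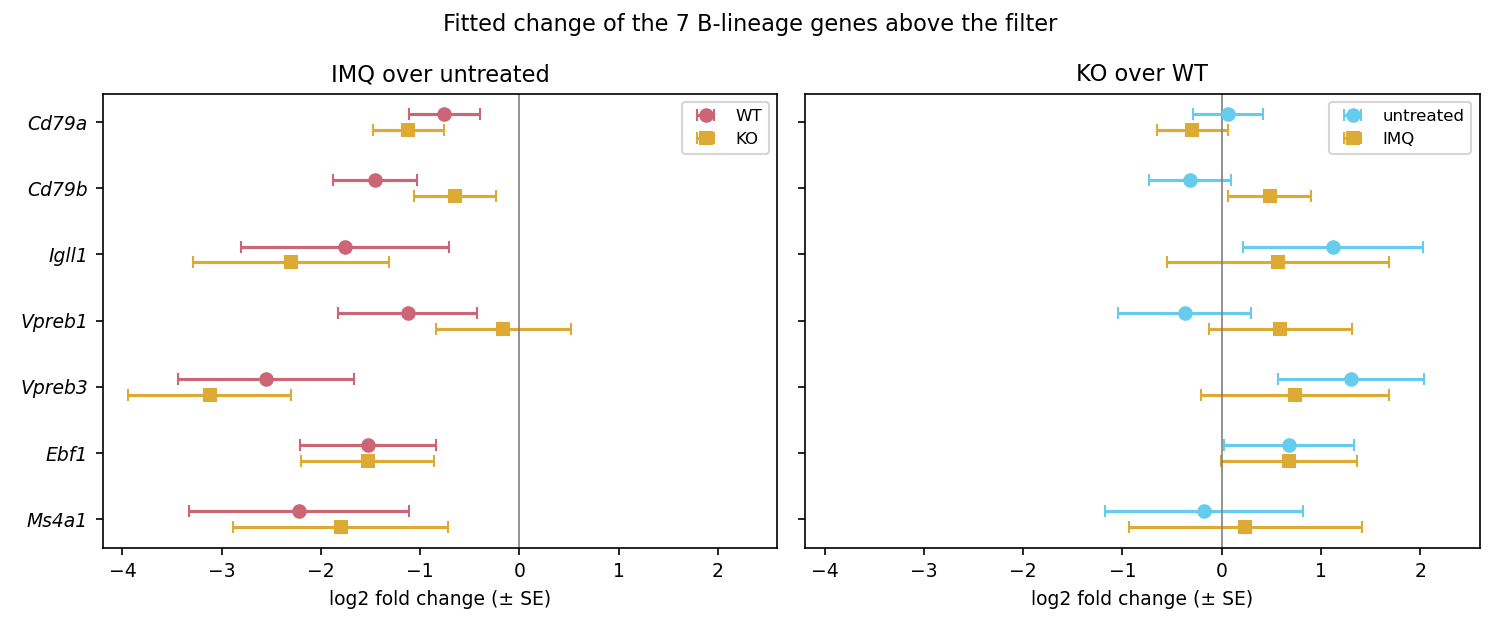
Fitted log2 fold changes (horizontal axes) with SE bars for the 7 genes that passed the filter, IMQ over untreated on the left and KO over WT on the right. All IMQ changes lie left of 0 in both genotypes, with Vpreb1 in KO at -0.16, while the KO over WT changes lie from -0.37 to 1.31 and pass no threshold.

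The members' levels can be ordered only per length of transcript. Per kilobase of annotated exon in WT untreated libraries, Cd79a stood at 4.66 ± 2.42 CPM and Cd79b at 3.00 ± 1.74 (SD, n = 5), which did not differ beyond their spread. Vpreb3 followed at 0.213 ± 0.0762, Vpreb1 at 0.129 ± 0.0471 and Ebf1 at 0.127 ± 0.0568. Igll1 (0.0600 ± 0.0560), Ms4a1 (0.0542 ± 0.0288) and Pax5 (0.00760 ± 0.00478) were the lowest. A gap wider than the spread lay between Cd79b and Vpreb3, as did one between Ms4a1 and Pax5, whereas neighbours from Vpreb3 to Ms4a1 overlapped. Under IMQ, Cd79a and Cd79b again led in both genotypes (2.76 ± 0.788 and 1.09 ± 0.377 in WT, 2.24 ± 0.522 and 1.53 ± 0.883 in KO) and Pax5 had the lowest mean (0.00128 ± 0.00189 and 0.00413 ± 0.00505), within the spread of Ms4a1 (0.0114 ± 0.0223 and 0.0146 ± 0.0214).

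The members rose and fell together from library to library within groups. With each group's mean removed, each member's log2(CPM + 0.1) correlated with the mean of the other 7 at Pearson's r from 0.594 (Cd79b) to 0.879 (Ms4a1) over the 20 libraries, which share depth and scaling, and Spearman's rho ranged from 0.412 (Cd79a) to 0.813 (Ms4a1). KO untreated replicate 1 was the highest of its group for 6 of 8 members and replicate 3 the lowest for 7 of 8. WT IMQ replicate 5 and KO IMQ replicate 2 were each the highest of their group for 5 of 8. Genes outside the 8 were ranked by the correlation of their log2 CPM, less group means, with the mean of all 8 members. Their log2 CPM was edgeR's, with a prior count of 2 in place of 0.1 CPM, so these r are not directly comparable with those above. The most alike were Ablim1 (r = 0.921), Serpina3f (0.913), Fat4 (0.907), Mcc (0.883), Pou6f1 (0.882), Hs3st3b1 (0.872), Gpr171 (0.867), Gimap5 (0.862), 1700029J07Rik (0.859) and Nacc2 (0.854), of 14023 genes over the same 20 libraries. The summed reads of the members ran from 181 in KO untreated replicate 3 to 1976 in WT untreated replicate 3.

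**Figure D3:**
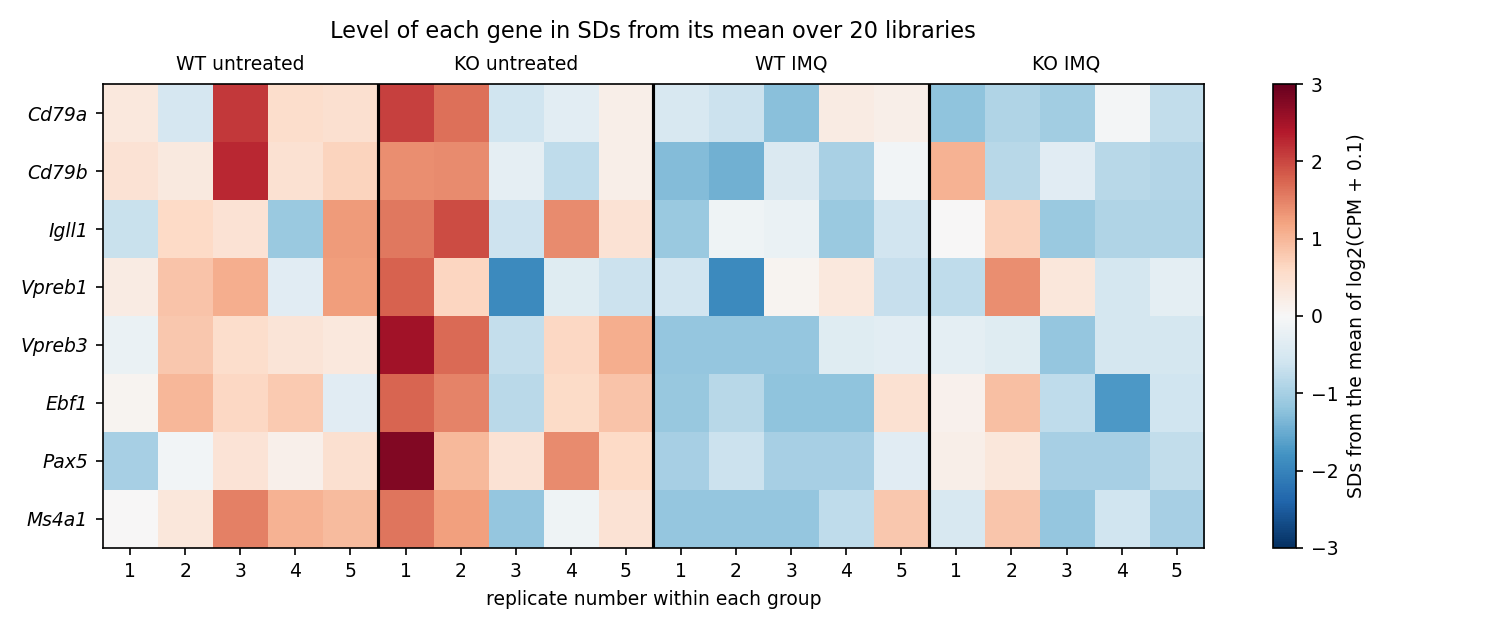
Level of each gene (rows) in each library (columns, numbered by replicate within each group), as SDs of log2(CPM + 0.1) from the gene's mean over the 20 libraries; red is above and blue below the mean. KO untreated replicates 1 and 2 are high for all 8 genes, and WT IMQ replicate 5 and KO IMQ replicate 2 have the highest mean over the 8 genes in their groups.

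The genotype comparisons asked whether the loss of Bmal1 in myeloid cells went with another level of the same genes. No member's libraries of one genotype all lay apart from those of the other, in untreated (0 of 8, beside 1.52% of all genes) or IMQ libraries (0 of 8, beside 1.07%). None of the 7 fitted members passed the threshold in either genotype comparison, beside 0.207% of all genes called in untreated and 0.292% in IMQ libraries. By edgeR's quasi-likelihood test, 0 of 7 had an unadjusted p under 0.05 in each comparison (307 of all 14030 genes untreated and 2788 under IMQ), and DESeq2 and limma called none either, with no adjusted p from DESeq2 for Igll1 and Vpreb1 under IMQ. In untreated libraries the largest fitted difference was that of Vpreb3, higher in KO by 1.31 (log2, SE 0.74, adjusted p = 1.00). Under IMQ it was again Vpreb3, by 0.74 (SE 0.95, adjusted p = 0.622), and Cd79a was the 1 member with a lower fitted level in KO (-0.30, SE 0.36, adjusted p = 0.598). Pax5, which the fit left out, was higher in KO than in WT untreated libraries by an exact two-sided permutation test on log2(CPM + 0.1) (difference 0.87, n = 5 and 5, p = 0.016), and 4 of its 5 KO values lay above the highest WT value. Adjusted over the 16 such tests of 8 genes in both comparisons the p was 0.254, and the smallest p that 5 against 5 can give is 0.00794. Under IMQ the Pax5 difference was 0.25 (exact permutation p = 0.365).

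No member's response to IMQ was called different between genotypes. The interaction, KO change less WT change, ranged from -0.57 for Vpreb3 (SE 1.31, adjusted p = 0.862) to 0.96 for Vpreb1 (SE 0.98, adjusted p = 0.683) by edgeR's test. That of Cd79b was 0.80 (SE 0.59, adjusted p = 0.640) and that of Cd79a -0.36 (SE 0.50, adjusted p = 0.757). Across all genes the interaction called 0%, and 721 genes had an unadjusted p under 0.05, none of them a member. With SEs of 0.50 to 1.54, an interaction of the size seen for Vpreb1 could not be separated from 0.

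Other genes of the B lineage were tested under IMQ, in the same libraries in which the 8 genes were selected, so they are no independent test of that change. Lists of pro-B and pre-B, pan-B and mature B genes held 33 genes, of which 27 were listed in the files and 20 passed the filter. In WT 3 of 20 were called lower by edgeR (Blk, Fcrla and Pou2af1) and 1 higher (Cxcr5), beside 1.6% and 2.34% of all genes. In KO 6 of 20 were called lower, among them Bank1, Blk, Fcrl1, Fcrla and Spib, and 1 higher (Cxcr5), beside 9.04% and 14.4%. The median log2 change of the 20 was -1.05 in WT and -1.03 in KO, against 0.027 and 0.024 over all genes.

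The WT count depended on single libraries, as did the number of all genes called lower. It was 0 when any of the 5 WT untreated libraries or of WT IMQ replicates 1 to 4 was left out, and 9 without WT IMQ replicate 5. Over all genes, the 225 called lower became 13 to 73 in the first fits and 911 without replicate 5. Without replicate 5 the calls included Bank1 (-1.01, adjusted p = 0.007) by edgeR. The KO count was 2 without KO untreated replicate 1, 2 without KO untreated replicate 2, 3 without KO IMQ replicate 3 and 2 without KO IMQ replicate 5. Without WT IMQ replicate 5 and KO IMQ replicate 2 together the counts were 8 in WT and 9 in KO. With 1 KO library left out, Bank1 stayed called each time, whereas Blk, Fcrl1, Fcrla, Spib and Cxcr5 each lost their call in several such fits (highest adjusted p by edgeR 0.085, 0.103, 0.134, 0.169 and 0.103).

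Blk, a kinase of the receptor pathway, fell by 3.76 in WT (SE 1.01, adjusted p = 0.045) and by 3.39 in KO (SE 1.11, adjusted p = 0.035, or 0.055 with the replicate block). Fcrla fell by 2.44 (SE 0.66, adjusted p = 0.045) and 1.85 (SE 0.66, adjusted p = 0.048, or 0.080 with the replicate block). Pou2af1, a coactivator of immunoglobulin genes, fell by 2.10 in WT (SE 0.58, adjusted p = 0.049) and had -1.05 in KO (SE 0.57, adjusted p = 0.174). With the replicate block, 0 of 12 pan-B genes were called in WT, so the WT calls of Blk, Fcrla and Pou2af1 were lost. Bank1 and Fcrl1, which stood at 11.2 to 14.3 and 10.7 to 12.4 CPM in KO untreated libraries and so were read far more often than Blk, fell by 1.02 (SE 0.25, adjusted p = 0.012) and 0.92 (SE 0.31, adjusted p = 0.040) in KO. The summed CPM of the 8 members varied more in KO untreated libraries, from 6.09 to 24.4. Replicate 3 had the lowest sum, the highest Fcrl1 (12.4 CPM) and the lowest Bank1 (11.2 CPM). Which cells the Bank1 and Fcrl1 reads came from was not tested. Spib, a transcription factor of B cells and plasmacytoid dendritic cells, fell by 2.98 in KO (SE 0.99, adjusted p = 0.037 by edgeR). Cxcr5, the chemokine receptor that guides B cells to follicles, went the other way, up by 2.31 in WT (SE 0.45, adjusted p = 0.014) and 1.25 in KO (SE 0.43, adjusted p = 0.041, or 0.052 with the replicate block).

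None of the 4 tested genes of early B cells was called in either genotype in the main fit. In KO, DESeq2 called 1 of 4 lower (Akap12, adjusted p = 0.044), and edgeR with no filter called 2 of 8. With 1 library left out, edgeR called 0 to 1 lower in WT and 0 to 2 in KO. Without the pair of libraries that lay apart, 1 of 5 tested was called lower in WT and 3 of 5 in KO, and 2 of 5 were in KO without KO IMQ replicate 2 alone or without KO untreated replicate 3 alone. Il7r, the receptor for the cytokine that early B cells need, had -1.38 in WT (SE 0.95, adjusted p = 0.414) and -0.97 in KO (SE 0.88, adjusted p = 0.424). Rag1, which cuts the immunoglobulin genes for rearrangement, and Dntt, which adds bases at the joints, did not pass the filter. Rag1 had 12 reads in WT untreated, 128 in KO untreated, 5 in WT IMQ and 0 in KO IMQ, where 3 reads over the group would allow up to 0.00909 CPM. KO untreated replicate 1 alone stood at 1.33 CPM, against at most 0.162 in the other KO untreated libraries. Dntt had 53, 124, 2 and 14 reads in the same order of groups. Ighm and the other immunoglobulin constant genes are not analysed here. None of the 20 other B-lineage genes was called between genotypes or in the interaction by edgeR, and 2 untreated, 1 under IMQ and 0 in the interaction had an unadjusted p under 0.05 (307, 2788 and 721 of all 14030 genes).

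Genes of several other cell types moved in the same libraries, and their part in the members' values was not tested. Of 11 plasma cell genes, all 11 tested, 6 were called lower in WT and 4 in KO, or 3 in KO with the replicate block, where Mzb1 had an adjusted p of 0.063 by edgeR. Their summed level ran from 478 to 1763 CPM in WT untreated and 177 to 471 in WT IMQ, and from 445 to 1243 in KO untreated and 223 to 417 in KO IMQ, with no overlap in either genotype. Jchain, the chain that joins secreted antibodies, went from a mean of 577 to 98.0 CPM in WT (log2 change -2.56, SE 0.62, adjusted p = 0.030) and from 567 to 89.1 in KO (-2.67, SE 0.62, adjusted p = 0.009). Sdc1, the plasma cell surface protein CD138, fell by 2.19 (SE 0.49, adjusted p = 0.023) and 1.89 (SE 0.49, adjusted p = 0.013). Derl3 fell by 2.24 (SE 0.53, adjusted p = 0.028) and 1.83 (SE 0.52, adjusted p = 0.021). In WT this count was 0 to 3 without any 1 untreated library. It was 0 without any 1 of IMQ replicates 1 to 4, and 9 without IMQ replicate 5. With the replicate block it was also 0 in WT, where 66 of all 14030 genes were called lower. A fit of only the WT groups gave 0 as well, beside 59 of 12955 genes. In KO it was 2 without untreated replicate 2 and 2 without IMQ replicate 5.

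Some genes of marrow stroma and endothelium, cells in which Ebf1 is read too, were also called lower. Of 11 genes, 3 were called lower in WT (Adipoq, Cxcl12 and Lepr) and 5 in KO (with Col1a2 and Kitl). Their summed level ran from 220 to 706 CPM in WT untreated, 39.6 to 228 in WT IMQ, 230 to 1012 in KO untreated and 59.1 to 451 in KO IMQ, so the groups overlapped in both genotypes. Cxcl12, the chemokine that retains B-cell precursors and neutrophils in the marrow, fell by 1.77 in WT (SE 0.48, adjusted p = 0.047) and 1.96 in KO (SE 0.49, adjusted p = 0.012). Lepr fell by 1.57 (SE 0.43, adjusted p = 0.047) and 1.43 (SE 0.43, adjusted p = 0.025), and Adipoq fell by 2.83 (SE 0.79, adjusted p = 0.049) in WT and had a log2 change of -2.91 (SE 0.78, adjusted p = 0.016) in KO. Col1a2, a collagen chain, had -2.71 in WT (SE 0.85, adjusted p = 0.071) and fell by 2.46 in KO (SE 0.83, adjusted p = 0.040, or 0.069 with the replicate block, which called Col3a1 at 0.046 instead). The WT count was 0 without any 1 of the untreated libraries or of IMQ replicates 1 to 4, and 6 without IMQ replicate 5. It was also 0 with the replicate block and in a fit of only the WT groups. The KO count was 2 without untreated replicate 1, 2 without untreated replicate 2, 3 without IMQ replicate 4 and 3 without IMQ replicate 5.

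**Figure D4:**
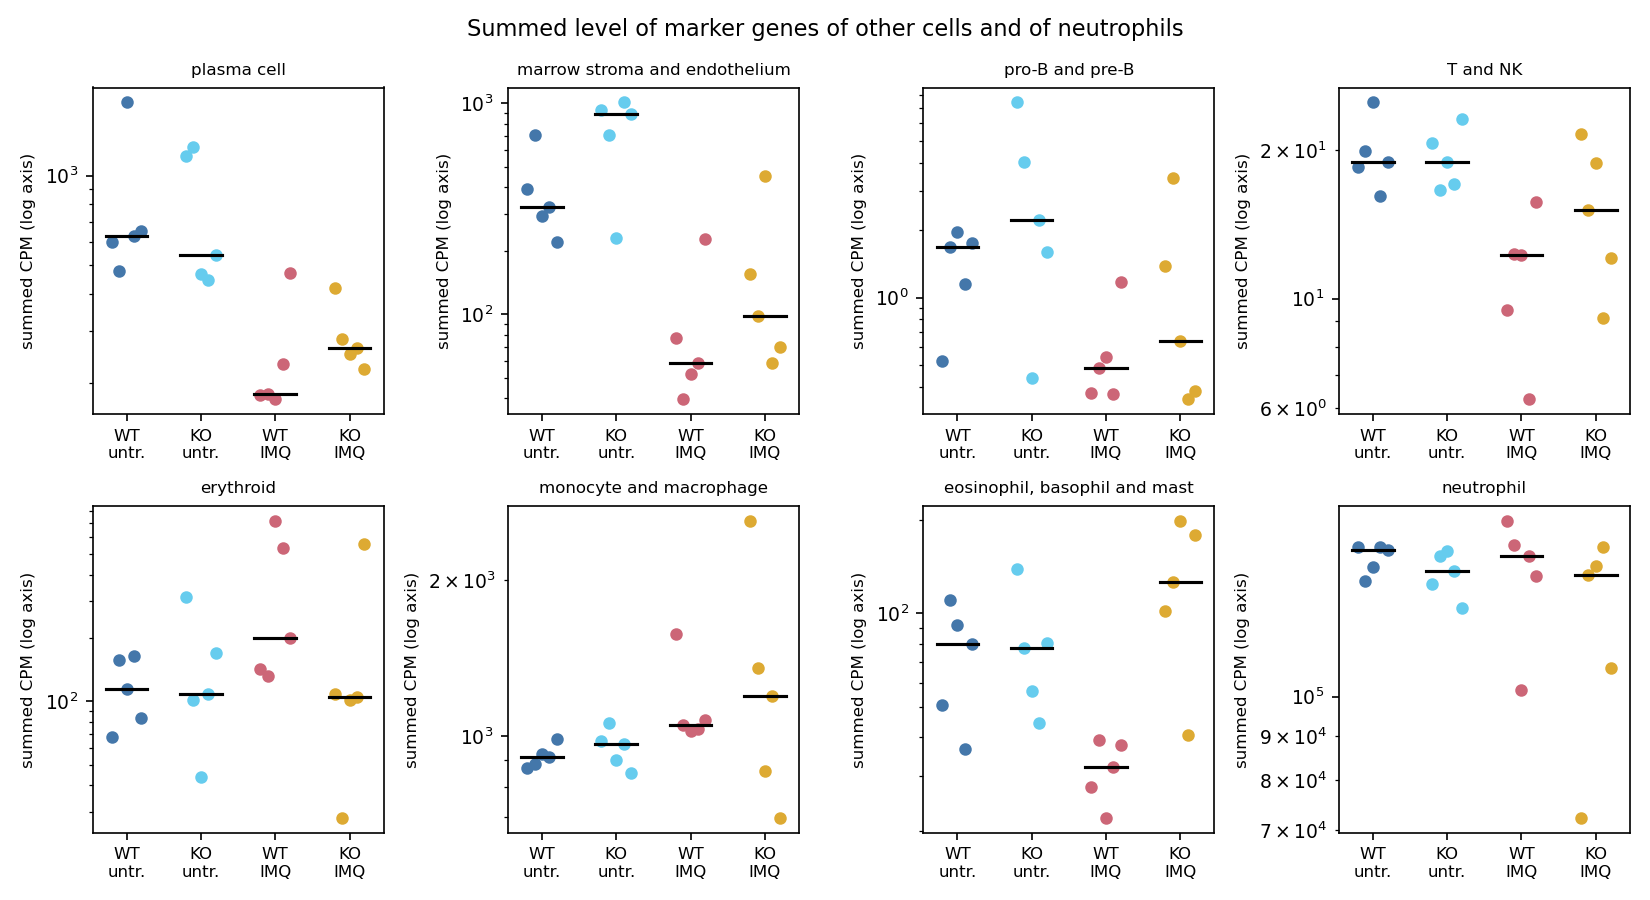
Summed CPM of 8 marker lists (logarithmic vertical axes) in the 5 libraries of each group, with lines at group medians. The plasma cell sums of IMQ libraries, 177 to 471 CPM, lie under those of untreated libraries of the same genotype, the stroma sums of IMQ libraries are mostly lower, and the neutrophil sums overlap across all groups. KO IMQ replicates 1 (72352 CPM) and 5 (107772) and WT IMQ replicate 3 (101663) have neutrophil sums under every untreated library. WT IMQ replicates 1 and 2 lie above every untreated library.

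The remaining lists are given by their counts. Of 7 T and NK genes tested, none was called in WT and Cd3d and Cd4 were called lower in KO (log2 change -1.49, SE 0.39, adjusted p = 0.014, and -2.60, SE 0.82, adjusted p = 0.031). The Cd4 call was lost without KO untreated replicate 1 or 2 or KO IMQ replicate 3, 4 or 5 (adjusted p 0.056 to 0.084 by edgeR). Summed T and NK levels were 16.2 to 24.99 CPM in WT untreated and 6.25 to 15.7 in WT IMQ libraries, with no overlap, and 16.6 to 23.1 in KO untreated and 9.14 to 21.6 in KO IMQ, with overlap. Of 15 monocyte and macrophage genes none was called in WT and 5 were higher in KO (Ccr2, F13a1, Irf8, Klf4 and Ms4a6c), with Ccr2 up by 2.30 (SE 0.57, adjusted p = 0.012). With the replicate block 3 of these were called (Irf8 adjusted p = 0.104, Klf4 adjusted p = 0.122), limma called 0, and edgeR called 1 without KO IMQ replicate 1, 2 without KO untreated replicate 4 and 3 without KO untreated replicate 1, 3 or 5. Summed levels of the 15 genes were 868 to 990 CPM in WT untreated and 1025 to 1573 in WT IMQ libraries, with no overlap. In KO they were 848 to 1063 CPM untreated and 696 to 2604 under IMQ, with overlap. Of 9 erythroid genes, Alas2 was higher in WT (2.76, SE 0.75, adjusted p = 0.045, and 0.060 to 0.118 without any 1 WT library other than IMQ replicate 5), and the 4 globin genes of that list are listed at 0 in all libraries. Of 11 eosinophil, basophil and mast cell genes, Prg2 and Prg3 were lower in WT, and Siglecf was lower and Ms4a2 higher in KO. The replicate block also called Ccr3 lower in KO (adjusted p = 0.040 by edgeR). The WT count was 0 without any 1 of IMQ replicates 1 to 4 and 0 or 1 without any 1 untreated library. It was 4 without IMQ replicate 5 and 1 with the replicate block. In KO no gene of this list was called higher without untreated replicate 2, 3 or 4 or IMQ replicate 1, 3 or 5. No plasmacytoid dendritic or progenitor gene was called under IMQ (1 of 5 and 1 of 6 had an unadjusted p under 0.05 in each genotype by edgeR, beside 3129 of all 14030 genes in WT and 5518 in KO). Of 12 neutrophil genes none was called in WT and Csf3r was lower in KO (-1.38, SE 0.40, adjusted p = 0.022), a call lost without KO IMQ replicate 1 (0.054) or 5 (0.060) or KO untreated replicate 4 (0.051).

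The cytokines that B cells depend on were read in these libraries at different levels. Tnfsf13b (BAFF), the survival factor of mature B cells, stood at 83.0 to 98.9 CPM in WT untreated and 5.83 to 82.2 in WT IMQ libraries (log2 change -0.93, SE 0.42, adjusted p = 0.193), and in KO it fell from 84.1 to 92.9 CPM down to 14.9 to 57.9 (-1.21, SE 0.42, adjusted p = 0.043, or 0.062 with the replicate block). That call was lost without any 1 KO untreated library or without KO IMQ replicate 1, 3 or 5 (adjusted p 0.067 to 0.102 by edgeR). Tnfsf13 (APRIL), which supports plasma cells, stood at 0.516 to 1.06 CPM in WT untreated and 0.427 to 2.08 in WT IMQ libraries (0.10, SE 0.41, adjusted p = 0.920). In KO it rose from 0.468 to 1.06 CPM up to 1.16 to 3.80, a log2 change of 1.34 (SE 0.41, adjusted p = 0.028). That call was lost without KO IMQ replicate 1 or 5 or KO untreated replicate 1 or 4 (adjusted p 0.052 to 0.087 by edgeR).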

How the data were processed

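Bone marrow neutrophil RNA was sequenced from 20 mice, 1 library each. The authors deposited raw counts of reads per gene. The submitters' processing notes name bcl2fastq, STAR 2.7.8a, HTSeq 2.0.1 and mm10, whereas the study's methods name TopHat. Strand setting and annotation are not given in the sources used here, and which sequencer ran each library is not given either. Lines that name no gene stayed out of library sizes, and unassigned reads (no feature) were 51.9 to 57.8% of the totals. Depth was 30782166 to 92613500 reads on genes.

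Counts of all 4 groups were fitted with edgeR 4.0.16 (R 4.3.3; filterByExpr, TMM factors 0.854 to 1.38, quasi-likelihood test), with Benjamini-Hochberg adjustment over 14030 genes and a threshold of 0.05. Genotype differences of the 8 genes were also tested by exact two-sided permutation on log2(CPM + 0.1). Alternatives included DESeq2 1.42.0 and limma 3.58.1, other scalings and filters, thinned counts, and each library left out in turn. In simulated counts of the WT IMQ comparison (13804 genes), 26 of 50 genes changed 2-fold and 40 of 50 changed 4-fold were recovered. The changed genes were drawn from all genes that passed the filter. Each gene had the same dispersion in every group. Recovery of genes read as rarely as most members was not measured. The members and lists were chosen with earlier results of these data known. Named genes were the 8 members, called B-lineage genes with Rag1, Dntt, Il7r and Ighm, the leading called genes of each other list, and the 10 genes most like the members. Of the genes this rule takes, 1 is not reported here. Genes named to spell out a count of 5 or fewer (such as Kitl, Irf8 and Klf4) were chosen after their values were seen.

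Replicates of a group were separate mice. Replicate pairs differed by 18.2 to 787 times the sampling noise (chi-square per degree of freedom, 40 pairs), so none was counted as 1. Same-numbered KO untreated and KO IMQ libraries deviated together from their group means (r 0.128 to 0.426, all 5 pairs). Values with the replicate block are therefore given beside KO results that it changed. The other comparisons did not meet this rule. The WT untreated and WT IMQ pairs were positive too (r 0.0728 to 0.384, all 5 pairs). The block lowered the WT counts of several lists. The labels give no source for pairing by number.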

Additional observations from a re-analysis of the deposited data

Results flagged for a closer look

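In 7 of 32 sets of 5 libraries (8 genes in 4 groups), the highest library stood apart from the other 4 by Dixon's ratio. The critical value was 0.71, which chance passes in about 1 of 20 sets of normally distributed values. That rate was not checked for CPM, many of them from few reads. In WT untreated replicate 3, Cd79a stood at 12.9 CPM (others 3.70 to 6.01) and Cd79b at 8.71 CPM (others 2.88 to 3.56). Cd79b stood at 4.41 CPM in KO IMQ replicate 1 (others 1.47 to 2.01). Ebf1 stood at 1.17 CPM in WT IMQ replicate 5 (others 0.210 to 0.330), and Ms4a1 at 0.316 CPM in the same library (others 0 to 0.0352). Ms4a1 stood at 0.322 CPM in KO IMQ replicate 2 (others 0 to 0.0649). Pax5 stood at 0.528 CPM in KO untreated replicate 1 (others 0.101 to 0.225). The flagged values share libraries, so they are not 7 separate events.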

How the results depend on the processing

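The count of other B-lineage genes called lower in WT (3) was 1 with library size only, 0 with no filter, 0 of 4 left with at least 10 counts in every library, 0 in a fit of only the groups compared, 0 with the replicate block, 5 with limma, 8 without WT IMQ replicate 5 and KO IMQ replicate 2 together (chosen after seeing the data), and 0 to 9 with 1 library left out. In KO (6) it was 2 of the 4 genes left with at least 10 counts in every library. It was 3 in a fit of only the groups compared, 4 with the replicate block and 9 with DESeq2. With 1 library left out it was 2 to 7. Of the pan-B genes alone, 5 were called lower in KO in the main fit. That number was 3 with library size only, in thinned counts and with limma. The median log2 ratio of the 8 genes (-1.67 in WT, -1.58 in KO) was -2.08 and -2.66 without the same pair, and -2.08 to -1.43 and -2.66 to -1.14 with 1 library left out. It was not computed under other filters, tools or the block. No member or other B-lineage gene was called between genotypes or in the interaction under any alternative run, the replicate block included.

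Some small log2 differences turned sign, and the cause was not tested. The Ebf1 interaction (near 0) was 0.24 with library size only, 0.012 with no filter, 0.13 with the replicate block, 0.027 in thinned counts, 0.21 with limma, 0.18 without the pair and -0.63 to 0.83 with 1 library left out. Vpreb1 in KO under IMQ was 0.11 with limma and -0.56 to 0.44 with 1 left out. Igll1 between genotypes under IMQ was -0.26 without the pair and -0.26 to 0.99 with 1 left out. With 1 left out, the untreated genotype difference was -0.24 to 0.41 for Cd79a, -0.55 to 0.096 for Cd79b and -0.67 to 0.099 for Ms4a1. The Vpreb3 interaction was -0.88 to 0.077, the Ms4a1 interaction -0.83 to 3.13 and the Ms4a1 genotype difference under IMQ -1.02 to 2.93. Apart from Cd79a, Cd79b and Ebf1 the members had few reads, which limits every value given for them.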
